A study of Oryctolagus cuniculus with 20 samples.

Results

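The comparison set 4 libraries of unoperated external jugular vein against 8 libraries of unoperated common carotid artery from rabbits (Oryctolagus cuniculus), 12 of the 20 RNA-seq libraries in a study of arteries transplanted into vein. The members were every gene with at least 1 FPKM in at least 4 of the 20 libraries, which kept 8657 of the 23669 genes in the deposited table. FPKM scales the number of sequenced fragments to the length of the transcript and the size of the library. It is meant to make levels of different genes comparable, but several textbook markers were hardly detected in these libraries, as given below. The veins are labelled as unoperated controls. The arteries came from the side opposite the operation and fall into 4 libraries taken 14 days and 4 taken 30 days after surgery. The other libraries, 4 from each day, are the transplanted arteries. They entered the fit to estimate the spread and also counted in the filter, so some members were kept through them. The labels give no strain, age or sex, and do not say on which day the veins were taken or whether vein and artery came from the same animals. They put a transplantation treatment and the cell line tag HASMC on every library, the unoperated ones included, although all other labels describe rabbit vessels. Libraries of a group are labelled as biological replicates without naming separate animals, and p-values therefore rest on the variation among these libraries, which may be technical.

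Arteries and veins share an endothelial lining, a muscular media and an adventitia, in different proportions. Arterial walls carry more elastic lamellae and more layers of contractile smooth muscle, whereas veins have a thin media and a wide adventitia of fibroblasts and collagen. Endothelial cells also hold a vessel identity: Notch signalling with ephrin B2 marks the arterial side, and the nuclear receptor COUP-TFII, encoded by NR2F2, holds Notch down on the venous side. Smooth muscle of the head and neck arteries derives largely from the neural crest, and the cells of different vessels keep homeobox codes of their place of origin. In whole vessels, fewer cells of a type and less RNA per cell cannot be told apart.

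The FPKM of the 23669 genes summed to 372916 to 406314 in the veins and 327806 to 421780 in the arteries, and 6944 to 7333 genes reached 1 FPKM in a vein library, against 6759 to 7096 in an artery library. The read depth is unknown, because the table holds no counts. Over 1264 genes at high level, the median SD between the 4 libraries of a group was 0.135 on the log2 scale in vein, 0.0732 in day 14 artery and 0.198 in day 30 artery. The day 14 arteries were thus nearly alike, with a median difference of 0.0724 to 0.0763 on the log2 scale between each library and the best weighted mean of the other 3. The vein library V1 differed by 0.0741 from such a mean and V3 by 0.181, and the day 30 artery L30_2 by 0.0835. The day 30 arteries L30_2 and L30_3 also stood apart in some genes: IL6 reached 111 and 225 FPKM there and at most 1.08 FPKM in the other arteries. Smooth muscle genes were high in all 12 libraries, as described below, but several textbook markers were close to 0 in all 20: COL3A1 reached at most 0.69 FPKM, PECAM1 3.06, DES 0.37, NOTCH3 0.99, HEY2 1.12, HEY1 0.43 and EPHB4 0.14. These genes were therefore not compared.

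Of the 8657 genes tested, 3214 (37.1%) differed between veins and arteries at an adjusted p under 0.05 (limma on log2(FPKM + 1), Benjamini-Hochberg over all genes): 2178 (25.2%) were higher in vein and 1036 (12%) lower. At a difference of at least 1 on the log2 scale, 630 genes were higher in vein and 398 lower, and at a difference of at least 3 the counts were 34 and 38. In 2091 genes (24.2%) the 4 veins did not overlap the 8 arteries; all veins lay above all arteries in 1402 (16.2%) and below them in 689 (7.96%). Against each artery day taken alone, 1898 genes (21.9%) were called with the same sign, and 26 were called with opposite signs. Counts of rises and falls in the gene lists below are to be read beside the 25.2% higher and 12% lower over all genes. The balance of higher and lower calls moved with the scaling. The median log2 difference over all genes was 0.14 on the deposited FPKM and 0.01 after scaling each library by median-of-ratios factors, which gave 1617 genes (18.7%) higher and 1527 (17.6%) lower; quantile normalization gave 1601 and 1431. With the day 14 arteries counted as 1 sample, 2036 genes were called, and 2333 were called without V1, L30_2 and the 2 graft libraries closest to a mean of their group.

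**Figure D1:**
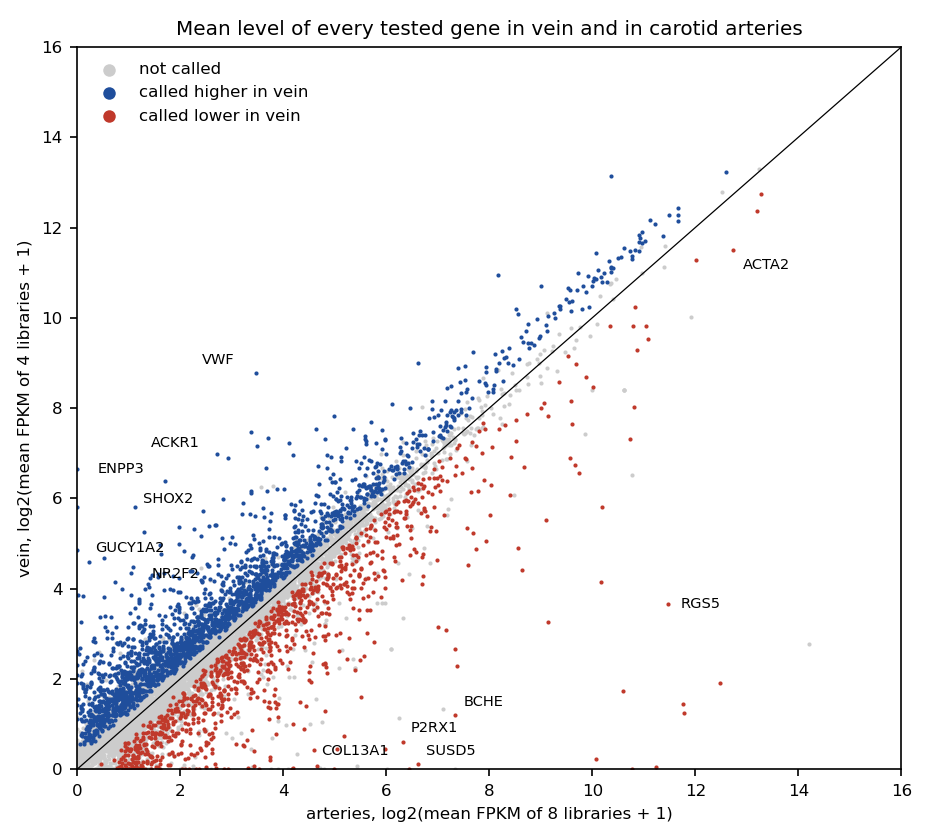
Mean level of each of the 8657 tested genes in 4 vein libraries (vertical axis) and 8 artery libraries (horizontal axis), both as log2(mean FPKM + 1), with the line of equal level. Blue points are the 2178 genes called higher in vein and red points the 1036 called lower; VWF lies far above the line and RGS5 far below it.

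The largest rise in vein was that of VWF, which encodes von Willebrand factor, the platelet-binding glycoprotein made by endothelium. VWF stood at 431, 417, 509.8 and 405 FPKM in vein libraries V1 to V4, against a lowest, median and highest value of 6.75, 8.01 and 19.5 FPKM in the 8 arteries. The groups did not come near each other: the lowest vein was far above the highest artery. The difference was 5.40 ± 0.19 (SE) on the log2 scale, with an adjusted p of 1.0e-12. ENPP3, an enzyme that hydrolyses extracellular nucleotides, had 78, 73.7, 99.4 and 76.4 FPKM in the veins, with V3 the highest, against 0.31, 2.85 and 3.57 FPKM (lowest, median, highest) in the arteries, a difference of 4.81 (adjusted p = 7.2e-10). PLVAP forms the diaphragms of endothelial fenestrae and caveolae. Its level was 174, 151, 222 and 154 FPKM in the veins, against 4.72, 8.59 and 18.3 FPKM in the arteries, without overlap (4.15, adjusted p = 6.3e-10). Endomucin, a sialomucin of venous and capillary endothelium encoded by EMCN, had 110.3, 105, 154 and 104 FPKM in the veins, against 4, 6.23 and 11.2 FPKM in the arteries, without overlap (3.99, adjusted p = 1.3e-10). Both genes were highest in V3. The pleiotrophin gene PTN, which encodes a heparin-binding growth factor, had 152, 177, 89.1 and 153 FPKM in the veins, lowest in V3, against 6.59, 7.03 and 23.4 FPKM in the arteries (3.76, adjusted p = 4.7e-09). FGF7, a growth factor that mesenchymal cells send to epithelium, had 25.9, 29.6, 17.7 and 25.1 FPKM in the veins, against 0.23, 0.35 and 0.96 FPKM in the arteries (4.16, adjusted p = 1.2e-11). Neither growth factor overlapped between the vessels. Keratocan, a small leucine-rich proteoglycan best known from the cornea and encoded by KERA, had 36.5, 44.9, 29.8 and 36.5 FPKM in the veins, against 0.91, 1.35 and 2.94 FPKM in the arteries (3.96, adjusted p = 1.4e-11). FHL2, a LIM-domain cofactor of transcription, had 14.9, 18.7, 11.5 and 8.17 FPKM in the veins and was listed at 0 in 7 of the 8 arteries, with 0.62 FPKM in the other. RLA-DR-ALPHA encodes the alpha chain of a rabbit class II antigen-presenting molecule. It had 166, 179.5, 104 and 194 FPKM in the veins, lowest in V3, against 3.95, 12.1 and 17.2 FPKM in the arteries (3.67, adjusted p = 1.4e-08).

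The largest fall in vein was that of RGS5, a GTPase activator that shortens G protein signalling and that is enriched in arterial smooth muscle and pericytes. RGS5 stood at 13.6, 18.7, 2.1 and 12.2 FPKM in V1 to V4, against a lowest, median and highest value of 1930.2, 3101 and 3322 FPKM in the arteries. It was thus high in every artery and low in every vein, lowest in V3. The difference was -8.07 ± 0.37 (SE) on the log2 scale (adjusted p = 2.2e-11). P2RX1, the ATP-gated cation channel through which sympathetic ATP contracts arterial smooth muscle, had 0.26, 0.62, 0.55 and 0.61 FPKM in the veins, against 59.6, 69.2 and 115 FPKM in the arteries (-5.69, adjusted p = 6.6e-12). HTR1B, a contractile serotonin receptor, had 0.24, 0.37, 0.24 and 0.6 FPKM in the veins, against 25.5, 66.9 and 85.3 FPKM in the arteries (-5.43, adjusted p = 3.5e-12). For both receptors every vein was under 1 FPKM, far below the lowest artery. BCHE, which encodes butyrylcholinesterase, had 1.74, 1.98, 0.22 and 1.3 FPKM in the veins, against 98.7, 168 and 191 FPKM in the arteries (-6.18, adjusted p = 7.8e-12). Cardiac and slow muscle troponin C, encoded by TNNC1, had 2.52, 4.03, 5.58 and 3.23 FPKM in the veins, against 97.2, 167 and 240.2 FPKM in the arteries (-5.09, adjusted p = 1.3e-09). COL13A1, a transmembrane collagen, reached at most 0.1 FPKM in a vein, against 21.6, 23.3 and 28.8 FPKM in the arteries (-4.57, adjusted p = 4.2e-16). SUSD5 reached at most 0.18 FPKM in a vein, against 83.1, 97.4 and 108 FPKM in the arteries (-6.49, adjusted p = 5.0e-14). None of these genes overlapped between the vessels. FIBIN, a secreted factor first described in fin bud development of zebrafish, had 24.4, 28, 7.12 and 21.4 FPKM in the veins, lowest in V3, against 332, 375 and 532 FPKM in the arteries (-4.37, adjusted p = 2.1e-10). The Kazal-type protease inhibitor gene SPINK8 had 0.46, 0, 0.6 and 0.39 FPKM in the veins, against 11.1, 36.6 and 50.1 FPKM in the arteries (-4.46, adjusted p = 5.9e-11). The ribosomal protein gene RPL5 and the splicing factor gene SFPQ also met the naming rule, but both were listed at 0 in all 4 veins, against 56.4 to 135 and 18.4 to 40.9 FPKM in the arteries. Both genes serve every cell, so they are given only as listed at 0, without a fold change.

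**Figure D2:**
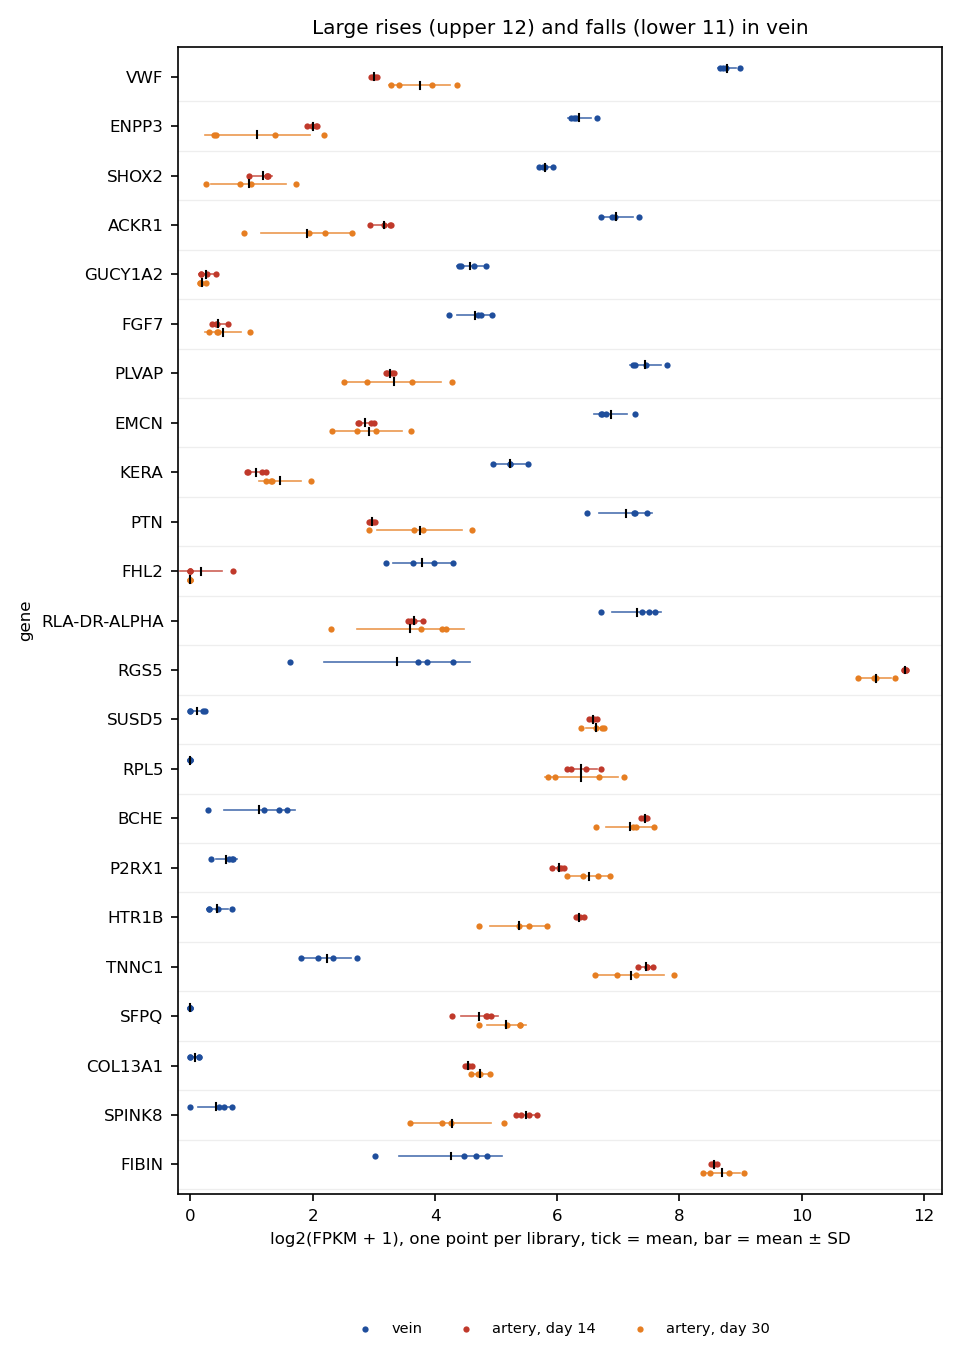
Level of 12 genes with large rises (upper rows) and 11 with large falls (lower rows) in vein, as log2(FPKM + 1), with 1 point per library, a tick at the mean and a bar of 1 SD to each side. Blue vein points lie right of all artery points in the upper 12 genes and left of them in the lower 11. RGS5 spans the widest gap. The lower 11 include RPL5 and SFPQ, which were listed without signal in every vein and are not read as falls.

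Most endothelial genes tested were higher in vein. Of 13 tested genes of the general endothelial list, 10 rose, none fell and 3 did not pass the test (CLDN5, ESAM and FLT1); the median difference was 0.88 on the log2 scale, against 0.14 over all genes. Endoglin, a co-receptor for BMP9 encoded by ENG, led them with 176, 179.6, 204 and 175 FPKM in the veins, against 17.1, 20.5 and 37.3 FPKM in the arteries (2.94, adjusted p = 6.4e-11). VE-cadherin, the adhesion molecule of endothelial junctions encoded by CDH5, had 33.4, 33, 36.6 and 31.5 FPKM in the veins, against 9.27, 10.4 and 28.4 FPKM in the arteries (1.31, adjusted p = 8.7e-05). The veins lay above all arteries in both genes, and CDH5 by a narrow margin. The guidance receptor ROBO4 averaged 7.28 ± 0.894 FPKM in the veins and 1.43 ± 0.416 FPKM in the arteries (SD, n = 4 and 8; 1.78, adjusted p = 8.5e-09). The leukocyte ligand ICAM2 averaged 56.6 ± 5.71 FPKM in the veins and 17.8 ± 7.36 FPKM in the arteries (1.71, adjusted p = 3.3e-05). KDR, the main VEGF receptor, overlapped between the vessels, with 1.75 to 4.75 FPKM in the veins and 0.4 to 2.36 FPKM in the arteries (1.29, adjusted p = 0.00059). The summed FPKM of the general endothelial list was 364.63 to 411.80 in the veins and 92.30 to 237.49 in the arteries.

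Venous identity genes differed mainly upward in vein, and arterial identity genes split. Of 12 tested venous identity genes, 6 rose (ACKR1, APLNR, EMCN, NR2F2, PLVAP and VWF) and 1 fell (NRP2), with a median difference of 0.94; the part of the higher endothelial total in these calls was not tested. NR2F2 had 16.3, 18.4, 11.9 and 13.1 FPKM in the veins, against 0.52, 1.45 and 2.64 FPKM in the arteries, without overlap (2.72 ± 0.37 (SE), adjusted p = 1.3e-05). ACKR1, the chemokine-binding receptor of venular endothelium, had 118, 104, 161 and 122 FPKM in the veins, highest in V3, against 0.83, 5.98 and 8.71 FPKM in the arteries (4.43, adjusted p = 6.4e-11). The apelin receptor gene APLNR was low in both vessels, with 3.63, 4.67, 1.46 and 3.48 FPKM in the veins and 0.31, 0.57 and 1.23 FPKM in the arteries (1.34, adjusted p = 0.00028). NRP2, a neuropilin that binds VEGF-C and is known from veins and lymphatics, went the other way, with 6.18, 5.6, 6.23 and 5.17 FPKM in the veins and 7.58, 8.72 and 10.9 FPKM in the arteries (-0.56, adjusted p = 0.022). That call was lost in 7 of the alternative settings, among them day 14 arteries alone (adjusted p = 0.074, with a range of 0.00059 to 0.12 over the alternatives).

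Of 15 tested arterial identity genes, 5 fell (DKK2, EFNB2, EPAS1, FBLN5 and GJA5), 4 rose (ACVRL1, GJA4, NRP1 and UNC5B) and 6 did not pass the test, among them the Notch ligands DLL4 and JAG1; the median difference was 0.08, and -0.04 under median-of-ratios scaling. GJA5 encodes connexin 40, a gap junction protein of arterial endothelium. It had 0.35, 0.16, 0.54 and 2.25 FPKM in the veins, highest in V4, against 4.07, 8.49 and 18.9 FPKM in the arteries (-2.48 ± 0.34 (SE), adjusted p = 1.6e-05). EFNB2, which encodes ephrin B2, had 10.1, 11.5, 4.18 and 7.04 FPKM in the veins, lowest in V3, against 18.5, 26.7 and 28.8 FPKM in the arteries (-1.54 ± 0.19 (SE), adjusted p = 5.6e-06). Neither gene overlapped between the vessels. The Wnt antagonist gene DKK2 had 6.07, 7.62, 1.13 and 5.67 FPKM in the veins, against 17.1, 24.4 and 71.8 FPKM in the arteries (-2.44, adjusted p = 0.0025). EPAS1, which encodes the oxygen-sensitive factor HIF-2 alpha, had 121, 122, 146 and 121 FPKM in the veins, against 191, 225 and 284 FPKM in the arteries (-0.84, adjusted p = 0.0044), and was not called against day 14 arteries alone (adjusted p = 0.06, with a range of 7.1e-07 to 0.06 over the alternatives). Among the rises, GJA4, the connexin 37 gene, had 5.78, 6.57, 4.87 and 6 FPKM in the veins, against 0, 1.87 and 3.37 FPKM in the arteries (1.35, adjusted p = 0.0072); against day 30 arteries alone its adjusted p was 0.1, with a range of 0.0017 to 0.1 over the alternatives. The netrin receptor gene UNC5B averaged 11.2 ± 2.02 FPKM in the veins and 4.95 ± 1.35 FPKM in the arteries (1.05, adjusted p = 2.5e-05). ACVRL1, which encodes the BMP9 receptor ALK1, overlapped at 4.72 to 7.93 FPKM in the veins and 2.34 to 5.53 FPKM in the arteries (0.66, adjusted p = 0.0024), and its adjusted p against day 30 arteries alone was 0.077, with a range of 0.00047 to 0.077 over the alternatives. NRP1, a VEGF co-receptor, differed by 0.59 (adjusted p = 0.034), and 15 of the alternative settings ended the call. The vein valve list had 2 rises among 7 tested genes, near the 25.2% higher over all genes, and a median difference of 0.06. The rises were the lymphatic growth factor VEGFC, at 7.79 ± 1 FPKM in the veins and 3.3 ± 1.5 FPKM in the arteries (1.11, adjusted p = 0.0003), and ANGPT2 (0.55, adjusted p = 0.018), a Tie2 ligand whose call was lost in 8 settings. Of 4 tested lymphatic genes only CCL21, a chemokine of lymphatic endothelium, passed the test, at 110.4, 101, 146 and 119 FPKM in the veins and 6.34, 14.6 and 125 FPKM in the arteries (2.43, adjusted p = 0.00075); the highest arteries were L30_2 and L30_3, and without them the difference was 3.18. PROX1, which defines lymphatic identity, reached at most 0.37 FPKM in any of the 20 libraries.

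Developmental transcription factors differed in both directions, and those of the homeobox and T-box list more often upward in vein. Of 27 tested homeobox and T-box genes, 12 rose in vein and 2 fell, against 25.2% higher and 12% lower over all genes. Their median difference was 0.45, against 0.14 over all genes, and under median-of-ratios scaling 10 rose and 2 fell. SHOX2, a homeobox factor of the sinoatrial node and the limb, had 53.3, 60.2, 50.9 and 54.5 FPKM in the veins, against 0.2, 1.19 and 2.32 FPKM in the arteries (4.73 ± 0.24 (SE), adjusted p = 6.4e-11). LHX8, a LIM homeobox factor known from the forebrain and the palate, had 21.6, 25, 15.9 and 23.3 FPKM in the veins, against 0.38, 1.22 and 1.96 FPKM in the arteries (3.45 ± 0.19 (SE), adjusted p = 2.6e-10). Both were thus clearly present in every vein and near 1 FPKM in most arteries. MSX2, a homeobox target of BMP signalling, had 16.6, 20.4, 10.0 and 14.9 FPKM in the veins, against 1.2, 1.44 and 2.37 FPKM in the arteries (2.64, adjusted p = 2.3e-10). MEOX2, a homeobox factor of somites and vessels, had 46.9, 52.7, 52.4 and 46.1 FPKM in the veins, against 4.27, 9.83 and 14.3 FPKM in the arteries (2.37, adjusted p = 1.5e-07). The neighbouring distal-less genes DLX5 and DLX6, which pattern the jaw, both rose. DLX5 averaged 4.77 ± 0.649 FPKM in the veins and 0.374 ± 0.243 FPKM in the arteries (2.08, adjusted p = 8.2e-06), and DLX6 averaged 3.6 ± 1.32 FPKM in the veins and 0.23 ± 0.347 FPKM in the arteries (1.90, adjusted p = 1.2e-05). HOXD4, a gene of the anterior HOX cluster, averaged 2.6 ± 0.54 FPKM in the veins and 0.134 ± 0.14 FPKM in the arteries (1.66, adjusted p = 1.9e-07). The mesenchymal factors PRRX1 and TBX15 were expressed in both vessels and higher in vein. PRRX1 averaged 57.8 ± 4.55 FPKM in the veins and 26.7 ± 2.37 FPKM in the arteries (1.08, adjusted p = 2.3e-05), and TBX15 averaged 22.9 ± 3.75 FPKM in the veins and 11.7 ± 3.57 FPKM in the arteries (0.96, adjusted p = 2.9e-07).

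The clearest patterning fall was TBX2, a T-box repressor, with 4, 4.43, 4.02 and 3.79 FPKM in the veins, against 22.2, 27.2 and 30.6 FPKM in the arteries (-2.46 ± 0.16 (SE), adjusted p = 2.2e-09). HOXA2, the HOX gene of the second pharyngeal arch, had 1.16, 0.32, 3.21 and 1 FPKM in the veins, against 1.42, 3.76 and 4.75 FPKM in the arteries (-0.96, adjusted p = 0.0098). HOXA2 overlapped between the vessels through V3, and 4 settings ended its call, among them day 30 arteries alone (adjusted p = 0.09, with a range of 0.00092 to 0.09 over the alternatives). Of 15 other patterning factors, 5 rose and 5 fell, with a median difference of -0.02. OSR2, a zinc finger factor of limb and palate mesenchyme, had 20.1, 19.2, 13.9 and 18.2 FPKM in the veins, against 0.72, 1.59 and 2.96 FPKM in the arteries (2.88, adjusted p = 3.7e-09). HIC1, a repressor that marks quiescent mesenchymal progenitors, averaged 18 ± 1.12 FPKM in the veins and 4.51 ± 2.84 FPKM in the arteries (1.90, adjusted p = 3.4e-07); L30_1 held the highest artery value at 11.3 FPKM. EBF2, a factor of brown fat and mesenchyme, averaged 4.14 ± 1.07 FPKM in the veins and 0.889 ± 0.206 FPKM in the arteries (1.43, adjusted p = 2.1e-06). On the arterial side, SOX9, the master factor of cartilage, had 0.43, 0.47, 0.35 and 0.51 FPKM in the veins, against 2.41, 3.62 and 10.1 FPKM in the arteries (-1.86, adjusted p = 6.1e-05). FOXS1, a forkhead factor of neural crest and mural cells, had 11.2, 8.47, 13.2 and 10.5 FPKM in the veins, against 20.7, 27.7 and 41.6 FPKM in the arteries (-1.28, adjusted p = 4.5e-06).

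**Figure D3:**
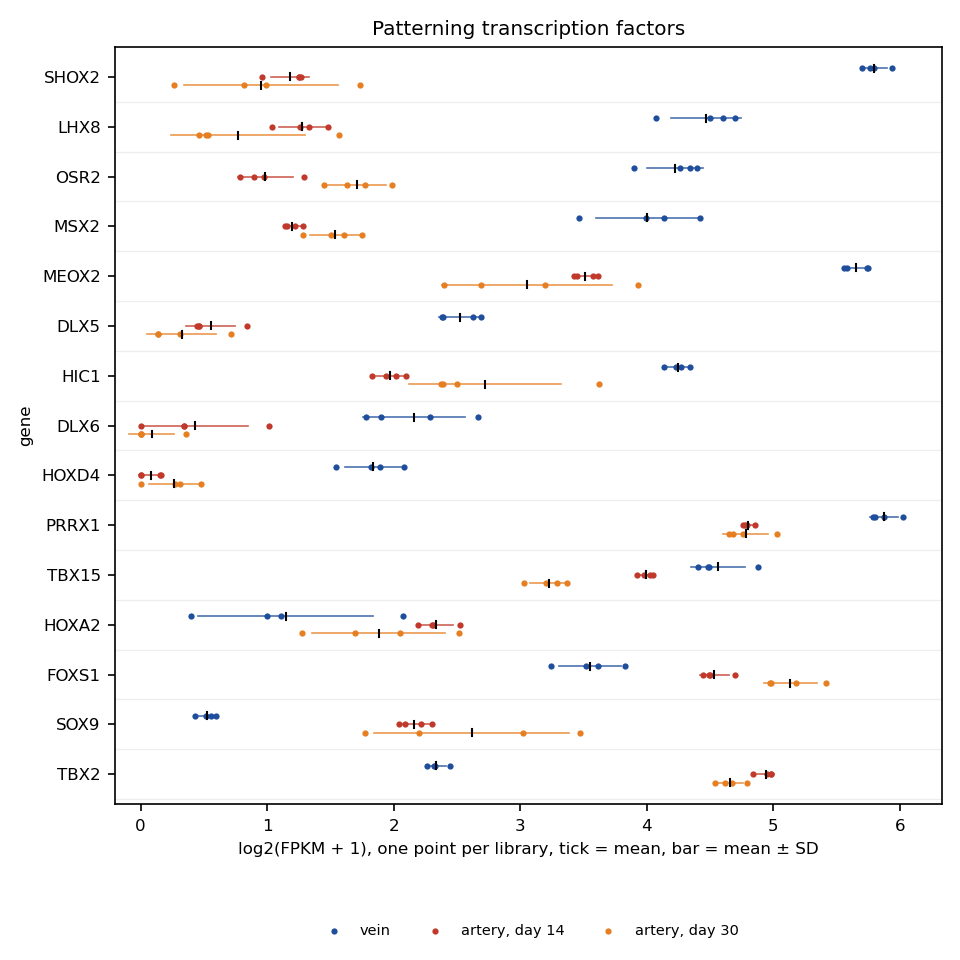
Level of 15 patterning transcription factors as log2(FPKM + 1) in vein, day 14 artery and day 30 artery, with 1 point per library, a tick at the mean and a bar of 1 SD to each side. Vein points lie to the right from SHOX2 to TBX15; they lie to the left of the arteries in FOXS1, SOX9 and TBX2 and overlap them in HOXA2.

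Contractile smooth muscle genes that differed were mostly lower in vein. Of 29 tested members, 13 fell and 2 rose, with a median difference of -0.24; the list summed to 12490 to 14287 FPKM in the veins and 17645 to 24257 FPKM in the arteries. ACTA2, which encodes the smooth muscle actin, had 2916, 3084, 2659 and 2851 FPKM in the veins, against 5286, 7074 and 7611 FPKM in the arteries (-1.22 ± 0.13 (SE), adjusted p = 6.8e-07). The smooth muscle myosin heavy chain gene MYH11 had 14.2, 12.4, 16.7 and 10.4 FPKM in the veins, against 26.8, 28.7 and 34.9 FPKM in the arteries (-1.10 ± 0.22 (SE), adjusted p = 0.00066). Each vein was below each artery in both genes. TAGLN, the actin-binding transgelin gene, did not pass the test, at 541 to 739.5 FPKM in the veins and 391 to 958 FPKM in the arteries (-0.19, adjusted p = 0.52). The phospholamban gene PLN averaged 471 ± 46.5 FPKM in the veins and 558 ± 62.3 FPKM in the arteries (-0.24, adjusted p = 0.085), and the enteric-type actin gene ACTG2 279 ± 25 FPKM in the veins and 189 ± 65.5 FPKM in the arteries (0.62, adjusted p = 0.16). PLN was called lower in 6 of the alternative settings, among them median-of-ratios scaling (-0.42, adjusted p = 0.0087, with a range of 0.0087 to 0.47 over the alternatives), and ACTG2 was called higher in 2, with a range of 0.016 to 0.55. The falls also took in NEXN, an actin-binding protein of the sarcomere, at 0.5 to 2.61 FPKM in the veins and 6.93 to 14.5 FPKM in the arteries (-2.17, adjusted p = 1.0e-05). ITGA8, the integrin alpha 8 chain of contractile muscle, averaged 103 ± 35.5 FPKM in the veins and 407 ± 57.9 FPKM in the arteries (-2.04, adjusted p = 2.3e-07). PPP1R14A encodes CPI-17, the inhibitor of myosin phosphatase that sensitizes muscle to calcium. It averaged 351 ± 30.0 FPKM in the veins and 1036 ± 136 FPKM in the arteries (-1.55, adjusted p = 3.6e-05). The cysteine-rich protein gene CSRP1 averaged 409.8 ± 40.9 FPKM in the veins and 934 ± 323 FPKM in the arteries (-1.12, adjusted p = 2.6e-05). The artery days differed for CSRP1, with means of 669.5 FPKM on day 14 and 1198.7 FPKM on day 30. The 2 rises were the alpha-actinin gene ACTN1, at 67.7 ± 6.28 FPKM in the veins and 28.8 ± 10.9 FPKM in the arteries (1.29, adjusted p = 6.8e-06), and the LIM-domain gene FHL5, at 4.92 ± 0.695 FPKM in the veins and 1.3 ± 0.745 FPKM in the arteries (1.44, adjusted p = 0.0017).

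Of 27 calcium and channel genes 9 were higher and 11 lower in vein, against 25.2% higher and 12% lower over all genes. CASQ2, the cardiac-type calcium store protein calsequestrin, had 72.9, 80.8, 57.8 and 63.3 FPKM in the veins, against 2.46, 9.96 and 14 FPKM in the arteries (2.92 ± 0.23 (SE), adjusted p = 2.4e-08). ATP2A2, the SERCA2 pump that fills the same store, had 40.7, 45.3, 38.7 and 37 FPKM in the veins, against 92.7, 96.7 and 163 FPKM in the arteries (-1.45, adjusted p = 6.8e-08). The pump and the storage protein thus differed in opposite directions, without overlap in either gene. ORAI1, the pore of store-operated calcium entry, averaged 11 ± 2.97 FPKM in the veins and 2.92 ± 0.774 FPKM in the arteries (1.61, adjusted p = 5.7e-08). KCNJ8, the pore of the vascular ATP-sensitive potassium channel and a pericyte marker, averaged 69.1 ± 2.67 FPKM in the veins and 31.9 ± 4.42 FPKM in the arteries (1.10, adjusted p = 0.0023). It thus went against RGS5 within the pericyte list, of whose 9 tested genes 2 rose and 2 fell.

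Among 38 tested vasoactive receptors, 14 rose and 9 fell in vein, and under median-of-ratios scaling 12 rose and 12 fell. Besides P2RX1 and HTR1B, the falls held the adrenergic receptor gene ADRA1B, at 0.05 to 0.71 FPKM in the veins and 3.99 to 9.07 FPKM in the arteries (-2.53, adjusted p = 4.9e-09). TACR2, a receptor for neurokinin A, was near 0 in the veins, at 0 to 0.12 FPKM, against 0.56 to 3.54 FPKM in the arteries (-1.37, adjusted p = 7.0e-08). The receptor for neuropeptide Y, a cotransmitter of sympathetic nerves, is encoded by NPY1R. It had 36.1, 34.6, 33.4 and 35.2 FPKM in the veins, against 57.2, 63.3 and 95.8 FPKM in the arteries (-0.96, adjusted p = 0.0028). The thrombin receptor gene F2R averaged 6.92 ± 0.971 FPKM in the veins and 28.1 ± 5.98 FPKM in the arteries (-1.86, adjusted p = 1.4e-07). Among the rises, PTGER4, a relaxant receptor for prostaglandin E2, had 11.6, 12.8, 10.2 and 11.8 FPKM in the veins, against 1.49, 2.24 and 5.45 FPKM in the arteries (1.79, adjusted p = 1.2e-07). EDNRA, the contractile endothelin receptor of smooth muscle, had 13.6, 9.11, 20.3 and 13.1 FPKM in the veins, against 3.73, 5 and 6.07 FPKM in the arteries (1.30, adjusted p = 0.00031). No library of one vessel reached into the range of the other in these 6 genes.

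Genes of nitric oxide, cyclic nucleotide and endothelin signalling differed between the vessels. GUCY1A2 encodes the alpha-2 subunit of soluble guanylate cyclase, the intracellular receptor for nitric oxide. It had 24, 27.6, 20.5 and 19.9 FPKM in the veins, against 0.12, 0.13 and 0.34 FPKM in the arteries (4.35 ± 0.20 (SE), adjusted p = 2.2e-11), with all arteries close to 0. PDE5A, which degrades cyclic GMP, had 2.39, 3.98, 1.21 and 2.09 FPKM in the veins, against 5.44, 6.68 and 9.89 FPKM in the arteries (-1.26, adjusted p = 1.7e-05). PRKAR2B, a regulatory subunit of protein kinase A, averaged 19.9 ± 4.17 FPKM in the veins and 3.71 ± 2.97 FPKM in the arteries (2.35, adjusted p = 3.6e-06). PDE7B, a phosphodiesterase for cyclic AMP, averaged 3.1 ± 0.589 FPKM in the veins and 0.406 ± 0.174 FPKM in the arteries (1.54, adjusted p = 8.9e-08). Over the cyclic nucleotide list as a whole, 9 of 27 tested genes rose and 6 fell (7 and 7 under median-of-ratios scaling). Of 18 genes that make or limit nitric oxide, prostanoids and endothelin, 10 rose and 1 fell, with a median difference of 0.88. DDAH1, which clears an endogenous inhibitor of nitric oxide synthase, had 13.7, 12.7, 15.3 and 12 FPKM in the veins, against 0.66, 1 and 1.5 FPKM in the arteries (2.82, adjusted p = 6.4e-11). The endothelin 1 precursor gene EDN1 had 21.2, 27.6, 11.6 and 17.5 FPKM in the veins, lowest in V3, against 1.19, 2.25 and 3.47 FPKM in the arteries (2.64, adjusted p = 4.0e-05). Caveolin 1, the coat protein of caveolae encoded by CAV1, averaged 489.7 ± 44.9 FPKM in the veins and 185 ± 28.7 FPKM in the arteries (1.41, adjusted p = 3.7e-08). The single fall was cyclooxygenase 1, PTGS1, at 7.5 ± 2.24 FPKM in the veins and 15.5 ± 2.97 FPKM in the arteries (-0.98, adjusted p = 0.00033). Of 13 genes of smooth muscle transcription and Notch signalling 3 rose and 4 fell: the fringe glycosyltransferase gene MFNG averaged 34.3 ± 2.39 FPKM in the veins and 6.98 ± 3.97 FPKM in the arteries (2.31, adjusted p = 8.8e-11), and the Notch ligand-like gene DNER 1.62 ± 0.444 FPKM in the veins and 20.8 ± 13.4 FPKM in the arteries (-2.81, adjusted p = 1.7e-11).

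Elastic fibre genes were the matrix group with the most falls for its size: 7 of 13 fell and 3 rose, with a median difference of -0.89 (-1.06 under median-of-ratios scaling). The elastin gene ELN itself was not among the 13 tested genes. FBLN5, the fibulin that seats elastin on microfibrils, had 39.9, 42.2, 37.1 and 40.2 FPKM in the veins, against 169, 187 and 207 FPKM in the arteries (-2.20 ± 0.26 (SE), adjusted p = 3.1e-06). Lysyl oxidase, the crosslinking enzyme encoded by LOX, had 2.83, 6.06, 5.6 and 5.22 FPKM in the veins, against 16.9, 22.3 and 32.1 FPKM in the arteries (-2.01, adjusted p = 1.2e-05). Neither gene overlapped between the vessels. FBN1, the fibrillin of microfibrils, averaged 26.8 ± 4.46 FPKM in the veins and 50.4 ± 5.35 FPKM in the arteries (-0.89, adjusted p = 3.2e-07), and LTBP2, a microfibril-bound protein, 0.507 ± 0.375 FPKM in the veins and 4.66 ± 1.17 FPKM in the arteries (-1.91, adjusted p = 3.8e-07). EMILIN2, a glycoprotein found with elastin, went the other way, at 66, 63.6, 87.8 and 65.6 FPKM in the veins and 7.56, 8.65 and 13.6 FPKM in the arteries (2.80, adjusted p = 9.4e-09). Collagens split, with 3 of 14 higher and 5 lower in vein. The fibrillar collagen genes COL1A1 and COL1A2 both rose. COL1A1 had 44.5, 51.4, 64.9 and 49.9 FPKM in the veins, against 12.4, 16.6 and 34.9 FPKM in the arteries (1.45, adjusted p = 7.0e-06), and COL1A2 averaged 2025 ± 347 FPKM in the veins and 838 ± 328 FPKM in the arteries (1.35, adjusted p = 5.2e-07). COL8A1, a short-chain collagen of the vascular intima and media, had 16.2, 16.1, 16.3 and 15.6 FPKM in the veins, against 93.9, 95.7 and 125 FPKM in the arteries (-2.59 ± 0.18 (SE), adjusted p = 3.3e-09). The basement membrane list had 3 rises and 3 falls among 14 genes.

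Small leucine-rich proteoglycans differed in both directions. Decorin, which coats collagen fibrils and is encoded by DCN, had 1678, 1658, 1708 and 1619 FPKM in the veins, against 313, 454 and 887 FPKM in the arteries (1.75, adjusted p = 5.5e-07). Osteoglycin, encoded by OGN, had 623, 689.6, 536 and 626 FPKM in the veins, against 1471, 1977 and 2176 FPKM in the arteries (-1.58, adjusted p = 6.6e-08). Fibromodulin, FMOD, which also binds collagen, averaged 48.6 ± 8.9 FPKM in the veins and 257 ± 100.5 FPKM in the arteries (-2.30, adjusted p = 4.3e-09). The day 14 arteries lay below that artery mean, at 164.1 to 170.2 FPKM. With keratocan above, 5 of 24 tested proteoglycan genes rose and 9 fell. The cartilage and bone list had 5 falls and 2 rises among 10 genes. Sclerostin, a Wnt inhibitor made by osteocytes and encoded by SOST, had 0.85, 1.1, 0.43 and 0.98 FPKM in the veins, against 10.4, 18.7 and 32.2 FPKM in the arteries (-3.48, adjusted p = 5.9e-10). CNMD, the anti-angiogenic chondromodulin of cartilage, had 2.09, 4.38, 0.4 and 1.29 FPKM in the veins, against 5.52, 10.2 and 15.6 FPKM in the arteries (-1.97, adjusted p = 6.1e-06). Matrix Gla protein, MGP, an inhibitor of vessel calcification and one of the strongest genes of the artery, averaged 5254 ± 674 FPKM in the veins, 6486 ± 98.7 FPKM in day 14 arteries and 12299 ± 3527 FPKM in day 30 arteries; it fell (-0.75, adjusted p = 0.0082), but not against day 14 arteries alone (adjusted p = 0.33, with a range of 0.00093 to 0.33 over the alternatives).

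Matricellular genes gave 6 rises and 6 falls among 19. SPARCL1, an anti-adhesive protein of vessel walls, had 758, 795, 672 and 711 FPKM in the veins, against 1798, 2269 and 2398 FPKM in the arteries (-1.55, adjusted p = 0.00013). ECM1 averaged 31.2 ± 5.36 FPKM in the veins and 6.76 ± 4.07 FPKM in the arteries (2.23, adjusted p = 2.1e-11). CTHRC1, a secreted protein of activated fibroblasts, overlapped between the vessels, at 61.9, 34.3, 135 and 60.3 FPKM in the veins and 5.54, 8.74 and 41.1 FPKM in the arteries (2.33, adjusted p = 5.3e-05). Thrombospondins, the family named in the title of the study, differed from one another. THBS4 was low in both unoperated vessels, at 0.72, 1.09, 0.17 and 0.62 FPKM in the veins and 0.13, 0.205 and 0.46 FPKM in the arteries, and did not pass the test (0.37 ± 0.33 (SE), adjusted p = 0.41); with only the 12 unoperated libraries in the fit it passed (adjusted p = 0.049, with a range of 0.049 to 0.67 over the alternatives). THBS3 had 14.4, 14.8, 15.7 and 13.3 FPKM in the veins, against 4.7, 6.73 and 11.4 FPKM in the arteries, and rose (0.89, adjusted p = 7.3e-06). THBS1 had 158, 161, 116 and 148 FPKM in the veins, 6.11 ± 0.445 FPKM in day 14 arteries and 88.7 ± 93.4 FPKM in day 30 arteries (SD, n = 4 each). Its pooled difference of 2.96 passed the test (adjusted p = 0.00031), while that against day 30 arteries alone, 1.56, did not (adjusted p = 0.07, with a range of 1.8e-08 to 0.07 over the alternatives); the high arteries were L30_2 and L30_3, and without them the difference was 3.79. THBS2 reached 1 FPKM in 2 of the 20 libraries and was not tested.

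Adhesion receptors of the matrix were divided, with 9 of 32 integrin, cadherin and junction genes higher and 9 lower. The fibronectin receptor chain ITGA5 had 23.2, 27.8, 20.6 and 23.7 FPKM in the veins, against 89.5, 109.8 and 198 FPKM in the arteries (-2.30, adjusted p = 2.6e-11). ITGB5, a vitronectin receptor chain, averaged 26.2 ± 5.56 FPKM in the veins and 104 ± 7.42 FPKM in the arteries (-1.96, adjusted p = 2.2e-09). SGCD, a sarcoglycan of the muscle membrane, had 2.68, 9.59, 4.42 and 1.15 FPKM in the veins, against 12.2, 35.9 and 57 FPKM in the arteries (-2.90, adjusted p = 1.2e-05). All 3 were thus lower in every vein than in any artery. CADM3, a cell adhesion molecule first known from neurons, had 28.7, 24.4, 28 and 24.3 FPKM in the veins, against 1.41, 2.25 and 2.78 FPKM in the arteries (3.17, adjusted p = 1.9e-09).

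Some genes of blood clotting and most tested complement genes differed between the vessel walls. Besides VWF, PROCR, the endothelial receptor that helps to activate protein C, had 59.9, 55.4, 76.3 and 58.6 FPKM in the veins, against 4.92, 5.55 and 7.72 FPKM in the arteries (3.17 ± 0.21 (SE), adjusted p = 1.8e-09). TFPI, which blocks the start of coagulation, had 49.9, 52.6, 41.4 and 48 FPKM in the veins, against 98.9, 109.7 and 117 FPKM in the arteries (-1.17, adjusted p = 8.1e-07). The haemostasis list as a whole had 2 rises and 3 falls among 14 genes, with 9 not called. Over all genes 37.1% were called, 25.2% higher and 12% lower, so this list was called about as often as genes in general. Complement genes leaned one way, with 8 of 11 higher and 1 lower (7 and 1 under median-of-ratios scaling) and a median difference of 0.89. C1S, a protease of the classical pathway, had 209, 222, 180.5 and 214 FPKM in the veins, against 33.6, 46.3 and 86.9 FPKM in the arteries (2.04, adjusted p = 1.7e-05). C2, which the classical pathway cleaves next, averaged 22.4 ± 8.29 FPKM in the veins and 4.73 ± 1.26 FPKM in the arteries (1.98, adjusted p = 2.9e-05).

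Antigen presentation and chemokine genes that were called were mostly higher in vein, as called genes were over the whole set. The median adhesion and chemokine gene was lower. Of 16 interferon and antigen presentation genes 6 rose and 1 fell, against 25.2% higher and 12% lower over all genes. B2M, the light chain of class I molecules, had 148, 159, 170.1 and 156 FPKM in the veins, against 15.7, 43.1 and 76 FPKM in the arteries (1.94, adjusted p = 1.2e-05), and PSMB8, a subunit of the immunoproteasome, averaged 8.31 ± 1.23 FPKM in the veins and 2.66 ± 1.43 FPKM in the arteries (1.44, adjusted p = 1.2e-05). CD74, the class II invariant chain, was listed at 0 in V2 and in 7 of 8 arteries, and 6 settings ended its call. Among 28 adhesion and chemokine genes, 9 rose, 1 fell and 18 were not called. Their median difference was -0.22 (-0.31 under median-of-ratios scaling), against 0.14 over all genes. The list summed to 377.48 to 478.29 FPKM in the veins and 86.4 to 1504.8 FPKM in the arteries, with overlap. ACKR4, a scavenger receptor for CCL19 and CCL21, averaged 12.2 ± 1.81 FPKM in the veins and 1.31 ± 0.891 FPKM in the arteries (2.59, adjusted p = 2.1e-07). IL34, a ligand of the macrophage growth factor receptor CSF1R, had 2.33, 1.7, 0.71 and 2.03 FPKM in the veins and was listed at 0 in all 8 arteries. The single fall was CXCL10, an interferon-induced chemokine, at 0.87, 0.44, 2.15 and 1.2 FPKM in the veins and 1.63, 8.03 and 42.3 FPKM in the arteries, with overlap through L30_4 (-2.22, adjusted p = 0.0078). The CXCL10 call was lost in 2 settings: with the day 14 arteries counted as 1 sample (adjusted p = 0.065) and without V1, L30_2 and the 2 graft libraries closest to a mean of their group (adjusted p = 0.062, with a range of 0.0012 to 0.065 over the alternatives). Macrophage markers gave 4 rises and 1 fall among 13 tested, with 8 not called, which is near the 25.2% higher and 12% lower over all genes. Their sum was 106.46 to 140.17 FPKM in the veins and 31.96 to 66.29 FPKM in the arteries. CD14 had 25.4, 20.4, 21.6 and 20.4 FPKM in the veins, against 3.21, 4.92 and 17.6 FPKM in the arteries (1.75, adjusted p = 0.00021). The complement component gene C1QC, also a macrophage product, had 54.1, 61.5, 22.9 and 52.5 FPKM in the veins, lowest in V3, against 6.4, 8.28 and 17.3 FPKM in the arteries (2.15, adjusted p = 2.0e-06). The mannose receptor gene MRC1 followed the same order of libraries, with 22.8, 28.2, 6.47 and 20 FPKM in the veins, against 1.63, 4.18 and 5.71 FPKM in the arteries (1.90, adjusted p = 0.0015). The part of macrophages in the differences of these immune genes was not tested.

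Single genes of growth factor and morphogen pathways held large differences in both directions. Of 38 TGF-beta and BMP genes 11 rose and 8 fell, against 25.2% higher and 12% lower over all genes. Their split under median-of-ratios scaling was 8 and 9. Their median difference was 0.12, against 0.14 over all genes. BMP6, a BMP ligand of endothelium and the iron-sensing signal of the liver, had 24.9, 24.2, 31.9 and 22.4 FPKM in the veins, against 1.84, 2.87 and 8.11 FPKM in the arteries (2.61 ± 0.16 (SE), adjusted p = 7.2e-10). Follistatin, FST, which traps activins, had 29.6, 38, 11.5 and 30.5 FPKM in the veins, lowest in V3, against 0.93, 3.31 and 4.98 FPKM in the arteries (2.71, adjusted p = 1.3e-06). BAMBI, a decoy receptor without kinase, had 18, 13.8, 27.1 and 14.4 FPKM in the veins, against 86.8, 106 and 119 FPKM in the arteries (-2.49, adjusted p = 3.4e-07). The ligand and the activin trap were thus higher in vein and the decoy receptor lower, each without overlap. Of 44 growth factors and receptors, 15 rose and 11 fell (12 and 14 under median-of-ratios scaling), with a median difference of 0.19. IGF1 averaged 46.8 ± 12.1 FPKM in the veins and 11.4 ± 4.8 FPKM in the arteries (2.00, adjusted p = 8.6e-07). ANGPT1, the stabilizing Tie2 ligand made by mural cells, averaged 1.96 ± 0.422 FPKM in the veins and 9.15 ± 2.29 FPKM in the arteries (-1.76, adjusted p = 2.9e-07). ANGPTL7 reached at most 0.03 FPKM in a vein, against 5.27, 6.42 and 19.6 FPKM in the arteries (-3.16, adjusted p = 4.9e-10). VEGFD, a ligand of the lymphatic VEGF receptor, was listed at 0 in all 4 veins, against 0.05, 7.09 and 10.2 FPKM in the arteries.

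Wnt genes leaned the other way, with 7 rises and 10 falls among 27, against 25.2% higher and 12% lower over all genes. ROR1, a receptor for WNT5A, had 0.48, 0.7, 0.4 and 0.68 FPKM in the veins, against 5.64, 8.88 and 10.8 FPKM in the arteries (-2.63, adjusted p = 2.1e-10). ZNRF3, a ligase that removes Wnt receptors, averaged 2.44 ± 0.671 FPKM in the veins and 9.41 ± 2.89 FPKM in the arteries (-1.57, adjusted p = 8.9e-09). SFRP4, a secreted Wnt antagonist, had 55.6, 53.1, 54.7 and 53.5 FPKM in the veins, against 3.9, 6.39 and 22.9 FPKM in the arteries (2.49, adjusted p = 2.9e-07), and LGR5, a receptor for R-spondins, averaged 2.73 ± 0.809 FPKM in the veins and 0.209 ± 0.377 FPKM in the arteries (1.64, adjusted p = 4.3e-06). Retinoid and steroid genes gave 8 rises and 2 falls among 16. CRABP2, which carries retinoic acid to its receptors, had 9.59, 13.1, 18.6 and 11 FPKM in the veins, against 20.3, 40.0 and 138 FPKM in the arteries (-1.75, adjusted p = 7.5e-06). RARG, a retinoic acid receptor, averaged 6.51 ± 2.02 FPKM in the veins and 0.991 ± 1.32 FPKM in the arteries (2.07, adjusted p = 0.0024).

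Fibroblast and adventitial markers were higher in vein: 13 of 19 rose and 3 fell, with a median difference of 0.89, and the split was 11 and 4 under median-of-ratios scaling. Their summed FPKM overlapped, at 3904.40 to 4361.50 in the veins and 2381.30 to 4647.30 in the arteries. DPP4 and PI16 are both known from adventitial fibroblasts, and they went opposite ways. DPP4, a membrane peptidase, had 121, 105, 153 and 117 FPKM in the veins, against 11.2, 12.7 and 28.9 FPKM in the arteries (2.85 ± 0.43 (SE), adjusted p = 4.8e-05). PI16 had 43.7, 60.3, 29.6 and 46.4 FPKM in the veins, against 347, 544 and 723 FPKM in the arteries (-3.60 ± 0.50 (SE), adjusted p = 2.1e-05). ALDH1A3, which makes retinoic acid, averaged 14.7 ± 1.18 FPKM in the veins and 2.2 ± 0.738 FPKM in the arteries (2.32, adjusted p = 2.0e-08).

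Markers of other tissues differed between the vessels as well. Of 8 tested striated muscle genes 7 fell and none rose, and their sum was 29.78 to 41.69 FPKM in the veins, against 491.16 to 651.07 FPKM in the arteries. The titin cap gene TCAP had 37.3, 27.6, 22.4 and 27.6 FPKM in the veins, against 322, 379 and 426 FPKM in the arteries (-3.68, adjusted p = 5.0e-06). TNNT2, cardiac troponin T, had 0.3, 0.38, 0.24 and 0.42 FPKM in the veins, against 9.76, 23.4 and 36.7 FPKM in the arteries (-4.09, adjusted p = 1.3e-10), and CKM, muscle creatine kinase, reached at most 0.26 FPKM in a vein, against 9.35, 11.6 and 19.4 FPKM in the arteries (-3.51, adjusted p = 7.2e-07). Of 13 Schwann cell and nerve genes 7 fell and none rose, and 5 were called against each artery day. The fall of CDH19 rested on day 14 arteries, with a mean of 13.2 FPKM there and 0 in the veins and day 30 arteries. GFAP, a filament of glia, averaged 0.657 ± 0.159 FPKM in the veins and 2.71 ± 0.768 FPKM in the arteries (-1.14, adjusted p = 1.4e-06). The nerve list summed to 77.18 to 99.41 FPKM in the veins and 92.80 to 154.28 FPKM in the arteries, which overlapped slightly. Of 10 tested adipocyte genes 7 rose and none fell, with a median difference of 1.38, but only 2 were called against each artery day. The sums of the list overlapped, at 138.25 to 554.49 FPKM in the veins and 63.18 to 544.27 FPKM in the arteries. CEBPA, a factor of fat cell differentiation, averaged 4.53 ± 2.3 FPKM in the veins and 0.767 ± 0.237 FPKM in the arteries (1.54, adjusted p = 6.0e-05). The fatty acid carrier gene FABP4 had 177, 219, 69.9 and 174 FPKM in the veins, against 21.6, 28.8 and 280.0 FPKM in the arteries (1.65, adjusted p = 0.017), and 5 settings ended its call; its highest arteries were L30_2 and L30_3. The adiponectin gene ADIPOQ, the defining product of fat cells, did not pass the test, at 15.7 to 54 FPKM in the veins and 8.43 to 73.1 FPKM in the arteries (0.63, adjusted p = 0.3), but did so without L30_2 and L30_3 (1.28, adjusted p = 0.0015, with a range of 0.0015 to 0.58 over the alternatives). Keratin genes of simple epithelium rose: KRT19 had 18.5, 16.6, 25.7 and 16 FPKM in the veins, against 0.27, 0.605 and 3.22 FPKM in the arteries (3.41, adjusted p = 8.2e-08), and KRT8 averaged 9.41 ± 3.12 FPKM in the veins and 0.57 ± 0.441 FPKM in the arteries (2.72, adjusted p = 0.00026). The haemoglobin gene HBB2, a gene of red blood cells, had 8226, 2592, 4265 and 21150 FPKM in the veins, against 583, 742 and 4712 FPKM in the arteries (2.75, adjusted p = 0.0016), with overlap. The part of muscle, nerve, fat or blood in the other differences between the vessels was not tested.

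**Figure D4:**
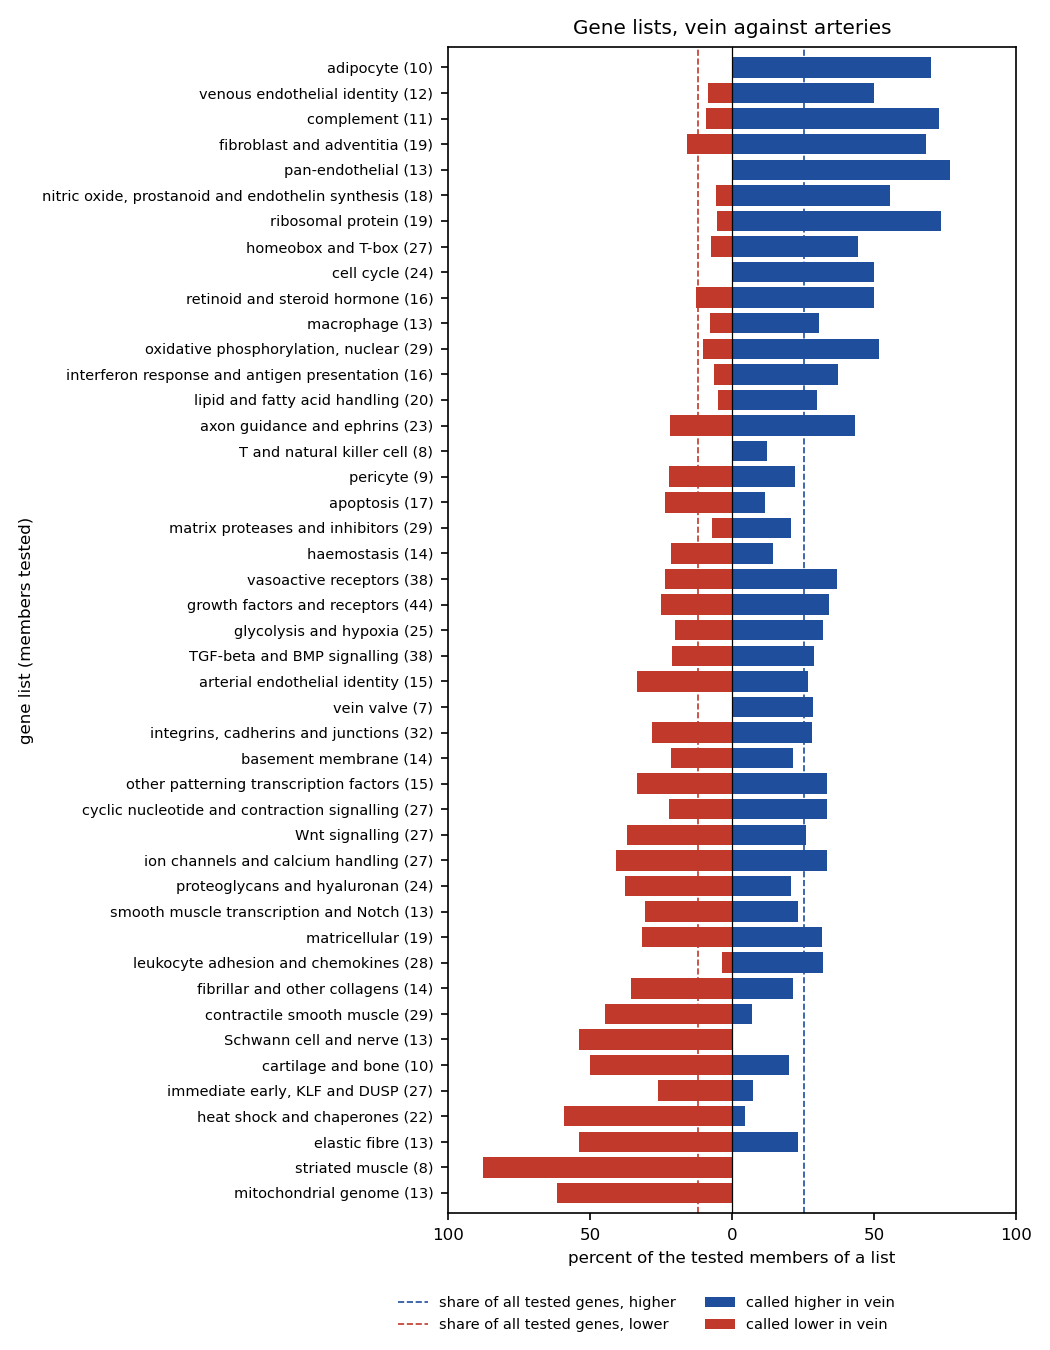
Share of tested members called higher in vein (blue bars to the right) and called lower (red bars to the left), for gene lists with at least 7 tested members. The number of tested members is in brackets, and lists run by median difference. The mitochondrial genome list is drawn too, although its values are not read as expression. Dashed lines mark the shares over all genes, 25.2% higher and 12% lower; adipocyte, complement and endothelial lists exceed the first, and striated muscle, elastic fibre and heat shock lists exceed the second.

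Heat shock genes and chaperones were lower in vein, with 13 of 22 tested members falling, 1 rising and a median difference of -0.79 (-0.96 under median-of-ratios scaling). CRYAB, a small heat shock protein abundant in muscle, had 285, 313, 163 and 271 FPKM in the veins, against 1296, 1906 and 2174 FPKM in the arteries (-2.81 ± 0.20 (SE), adjusted p = 8.0e-09). BAG3, a co-chaperone that clears damaged filamin in muscle, had 29.1, 36, 19.8 and 27.8 FPKM in the veins, against 153, 236 and 240.5 FPKM in the arteries (-2.89 ± 0.16 (SE), adjusted p = 2.9e-10). Both were lowest in V3, and neither overlapped. DNAJB5 averaged 3.87 ± 1.49 FPKM in the veins and 22 ± 5.03 FPKM in the arteries (-2.26, adjusted p = 1.4e-07), and HSPA4, a nucleotide exchange factor of the HSP70 system, averaged 18.2 ± 4.07 FPKM in the veins and 61.9 ± 7.68 FPKM in the arteries (-1.73, adjusted p = 7.9e-07). The single rise, HSPB2 (0.64, adjusted p = 0.011), was lost in 4 settings, median-of-ratios scaling among them. The list of immediate early, KLF and DUSP genes had 7 falls and 2 rises among 27. KLF15, a glucocorticoid-responsive factor of metabolism and muscle quiescence, had 8.03, 5.81, 7.66 and 6.03 FPKM in the veins, against 21.2, 29.6 and 43.3 FPKM in the arteries (-2.01, adjusted p = 9.1e-07). FOS, the best known immediate early gene, did not pass the test against the arteries of both days (-1.22, adjusted p = 0.22): it had 59.3, 42.9, 84.1 and 79 FPKM in the veins, 49.4 to 54 FPKM in day 14 arteries and 76 to 1262 FPKM in day 30 arteries. IL6 likewise did not pass (-1.92, adjusted p = 0.23), with at most 0.11 FPKM in a vein. Against day 30 arteries alone both were called lower in vein, FOS with a difference of -2.77 (adjusted p = 0.021, with a range of 0.021 to 0.81 over the alternatives) and IL6 with -3.91 (adjusted p = 0.039, with a range of 0.039 to 0.98).

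Energy and growth genes differed in both directions. Of 25 glycolysis and hypoxia genes 8 rose and 5 fell. HIF1A, the oxygen-regulated subunit of hypoxia-inducible factor 1, had 69.4, 68.9, 72.5 and 70.9 FPKM in the veins, against 151, 221 and 283 FPKM in the arteries (-1.56 ± 0.08 (SE), adjusted p = 1.6e-10). PFKP, the platelet-type phosphofructokinase, averaged 37.7 ± 4.61 FPKM in the veins and 123 ± 6.48 FPKM in the arteries (-1.69, adjusted p = 3.9e-08). Of 29 nuclear genes of oxidative phosphorylation 15 rose and 3 fell, but under median-of-ratios scaling 7 rose and 3 fell. COX7A1, a muscle-type subunit of cytochrome oxidase, had 28.1, 40.7, 51.9 and 46.3 FPKM in the veins, against 0.89, 3.57 and 18.4 FPKM in the arteries (3.08, adjusted p = 8.5e-06). The 13 genes of the mitochondrial genome were listed in ways that differed between groups: ATP8 had 4.31 to 10.0 FPKM in the veins, 37037 to 38325 FPKM in day 14 arteries and 0 to 14.6 FPKM in day 30 arteries. CYTB was listed at 0 in 3 of 4 veins and in L30_1, against 2939.5 FPKM in L30_3. These genes serve every cell, so their listed values are not read as expression. Of 19 ribosomal protein genes 14 rose, and 11 rose under median-of-ratios scaling; the single lower call under both was RPL5, listed at 0 in all veins and not read as a fall. The acidic ribosomal protein gene RPLP1 averaged 5522 ± 147 FPKM in the veins and 3238 ± 230.0 FPKM in the arteries (0.77, adjusted p = 0.00013). EEF1A1, the translation elongation factor and one of the strongest genes in both vessels, averaged 9632 ± 624 FPKM in the veins and 6207 ± 683 FPKM in the arteries (0.64, adjusted p = 3.4e-05). Of 24 cell cycle genes 12 rose and none fell, and 4 were called against each artery day. Under median-of-ratios scaling 10 rose and 1 fell. Some risers averaged below 1 FPKM in both vessels, among them CDK1, at 0.785 FPKM in the veins and 0.255 FPKM in the arteries. The list summed to 52.54 to 75.25 FPKM in the veins and 41.37 to 100.51 FPKM in the arteries. MCM3, a subunit of the replicative helicase, averaged 3.7 ± 0.274 FPKM in the veins and 1.74 ± 0.399 FPKM in the arteries (0.79, adjusted p = 0.00016), and the spindle protein gene TPX2 averaged 2.38 ± 0.196 FPKM in the veins and 0.686 ± 0.381 FPKM in the arteries (1.04, adjusted p = 0.00019).

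Genes of apoptosis, the process named in the study's title, gave 2 rises and 4 falls among 17. BCL2L1, which encodes the survival protein BCL-XL, had 16.2, 11.1, 16.5 and 21.3 FPKM in the veins, against 21.6, 36.3 and 41.7 FPKM in the arteries (-1.07, adjusted p = 7.8e-05). The survival gene BCL2 averaged 2.16 ± 0.643 FPKM in the veins and 4.87 ± 1.81 FPKM in the arteries (-0.85, adjusted p = 0.005), but its adjusted p against day 30 arteries alone was 0.12, with a range of 0.00077 to 0.12 over the alternatives. BAX, a pore-forming death effector, did not pass the test, at 9.05 to 12.4 FPKM in the veins and 7.86 to 14.1 FPKM in the arteries (-0.17, adjusted p = 0.53). The death ligand TRAIL, encoded by TNFSF10, had 10.2, 14.6, 6.93 and 11.5 FPKM in the veins, against 0.42, 1.67 and 2.68 FPKM in the arteries (2.15, adjusted p = 2.8e-07).

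The transplanted arteries give the same genes a further set of levels, stated here as values without a test, since the operated arteries share their unoperated counterparts with the comparison above. VWF averaged 441 ± 47.4 FPKM in the veins, 64.3 ± 23 FPKM in grafts of day 14, 132 ± 13.9 FPKM in grafts of day 30 and 10.1 ± 4.59 FPKM in the unoperated arteries (SD, n = 4, 4, 4 and 8). PLVAP averaged 175 ± 33 FPKM in the veins, 113 ± 28.6 FPKM in grafts of day 14, 175 ± 40.1 FPKM in grafts of day 30 and 9.39 ± 4.09 FPKM in the unoperated arteries. Both genes thus had graft means above those of the unoperated arteries. The patterning gene SHOX2 averaged 54.7 ± 3.95 FPKM in the veins, 4.23 ± 1.82 FPKM in day 14 grafts, 6.85 ± 2.39 FPKM in day 30 grafts and 1.17 ± 0.617 FPKM in the unoperated arteries. RGS5 averaged 11.6 ± 6.94 FPKM in the veins, 197 ± 90.8 FPKM in day 14 grafts, 167 ± 33.4 FPKM in day 30 grafts and 2844 ± 554 FPKM in the unoperated arteries. For these 2 genes the graft means lay between vein and unoperated artery. GJA5 averaged 0.825 ± 0.963 FPKM in the veins, 21.8 ± 14.4 FPKM in day 14 grafts, 31.4 ± 4.79 FPKM in day 30 grafts and 9.46 ± 5.33 FPKM in the unoperated arteries, so the grafts lay on the far side of the unoperated artery from the vein. THBS4 averaged 0.65 ± 0.379 FPKM in the veins, 62.8 ± 32.1 FPKM in day 14 grafts, 17.5 ± 5.08 FPKM in day 30 grafts and 0.25 ± 0.108 FPKM in the unoperated arteries, so neither unoperated vessel came near the graft levels.

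**Figure D5:**
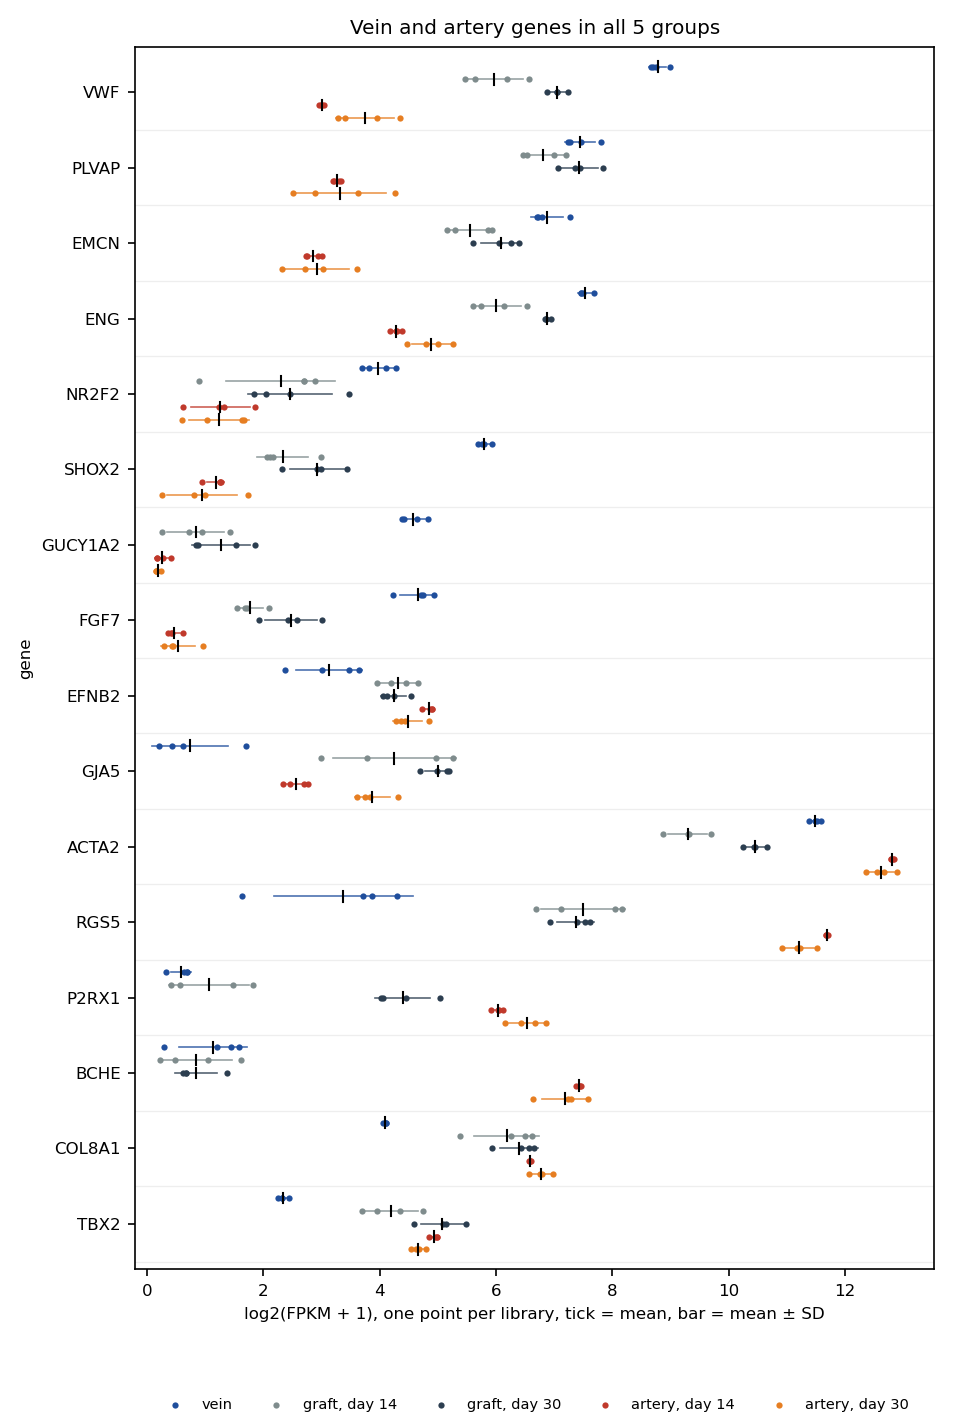
Level of 16 genes as log2(FPKM + 1) in vein, both graft groups and both unoperated artery groups, with 1 point per library, a tick at the mean and a bar of 1 SD to each side. Graft means of VWF, EMCN, ENG and SHOX2 lie between vein and unoperated artery, while graft points of GJA5 lie far to the right of the vein.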

How the data were processed

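Total RNA of whole vessels was extracted with TRIzol and sequenced as paired ends on a NovaSeq X Plus, per the labels' protocols. The authors deposited 1 table of FPKM values for 24964 transcript rows in 20 libraries; the submitters' processing notes name fastp, HISAT2, StringTie, RSEM and DESeq2, and their versions and the genome build are not given in the sources used here. No counts were used, so the read depth and counting intervals are not known, and each group rests on 4 libraries. FPKM values were summed over the transcripts of each Gene ID, which gave 23669 genes; the 8657 that reached 1 FPKM in 4 or more of the 20 libraries were kept. A filter of this kind also keeps genes present in 1 group only. Of these, 6837 had a symbol in the table, 613 took one from the RefSeq gene table by Gene ID, and 1207 had none. The unit of the test was log2(FPKM + 1), on which the changes of low genes are understated. All 20 libraries entered 1 fit in limma 3.58.1 (R 4.3.3) with a mean per group, moderated variances with a trend on level, and Benjamini-Hochberg adjustment over all 8657 genes at 0.05, two-sided. The contrast was vein minus the mean of the 2 unoperated artery groups, so a positive value is higher in vein; "called", "rose" and "fell" mean an adjusted p under 0.05. Steps before and after the fit used Python 3.11.15 with pandas 2.3.3, and the fit was tested on simulated data.

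The text names the 12 largest rises and 12 largest falls among called genes with a symbol, a mean of 5 FPKM or more in whichever vessel was higher, no overlap between the 4 veins and 8 arteries, and calls of the same sign against each artery day. It also names up to 5 called members with the smallest adjusted p of each of 50 gene lists, the called homeobox and T-box genes, genes of identity, muscle and apoptosis named whatever their result, and genes among the strongest of a vessel; some genes that met the rule are not reported here. Members beyond that rule (APLNR, NRP1, NRP2, EPAS1, DKK2, PPP1R14A, FHL5, PLN, ACTG2, NPY1R, EDNRA, PTGS1, LOX, SGCD, CXCL10, PI16, DPP4, HSPB2, ADIPOQ, FOS and IL6) were chosen after their values were seen. The comparison and all lists were chosen with earlier results of these data known, so no list is independent evidence of its direction. Alternatives covered the pseudocount, the filter, 3 other scalings, the libraries and weights in the fit, single artery days, near-identical libraries, each replicate left out, a replicate block, the transcript used per gene and genes listed at 0.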

Additional observations from a re-analysis of the deposited data

Results flagged for a closer look

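Of 467 sets of 4 libraries (named genes that reached 1 FPKM in vein, day 14 artery or day 30 artery), 25 had 1 library farther from the other 3 than Dixon's 95% limit; chance gives about 1 in 20 such sets. All values are FPKM. In vein, V3 was the highest library for ENPP3 (99.4, the others up to 78.0), EMCN (154.2, the others up to 110.3), EPAS1 (145.7, the others up to 121.8), ENG (204.4, the others up to 179.6), TBX15 (28.4, the others up to 21.4), DNER (2.28, the others up to 1.5), EMILIN2 (87.8, the others up to 66.0), FBN1 (33.5, the others up to 25.2) and TPX2 (2.67, the others up to 2.3). V2 was the highest for BCL2 (3.12, the others up to 1.89) and V4 the highest for ATP8 (10.02, the others up to 4.44).

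In day 14 arteries, whose libraries were nearly alike, the lone values were SHOX2 at 0.94 in L14_2 (the others from 1.38), SFPQ at 18.4 in L14_4 (the others from 27.6), CCL21 at 12.5 in L14_4 (the others from 14.5), ANGPTL7 at 5.27 in L14_4 (the others from 6) and TNFSF10 at 0.42 in L14_3 (the others from 1.66). On the high side stood CSRP1 at 687.5 in L14_1 (the others up to 665), FMOD at 170.2 in L14_2 (the others up to 164.7) and FOS at 54 in L14_2 (the others up to 49.8). In day 30 arteries, L30_1 was the highest for KERA (2.94, the others up to 1.51), LHX8 (1.96, the others up to 0.45) and HIC1 (11.3, the others up to 4.66). L30_2 was the highest for ECM1 (12.3, the others up to 9.98) and for CD74 (3.53, the others listed at 0), and L30_4 the lowest for B2M (57.7, the others from 74.1).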

How the results depend on the processing

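The count of genes called was 3214 and stayed within 1.5 times of that in every alternative except one: with the day 14 arteries counted as 1 sample, 2036 genes were called, 1361 higher and 675 lower. Leaving out 1 replicate of vein or artery in turn gave 2756 to 3293 genes called, 1853 to 2200 higher, 880 to 1093 lower and 2132 to 2538 without overlap. Replicate numbers of the titles recur across groups, but deviations of same-numbered libraries correlated at -0.09 to 0.06, so the numbers were not taken to pair the libraries; the fit with the replicate block called 3121 genes, 2124 higher and 997 lower. Setting aside L30_2 and L30_3, an alternative chosen after seeing the data, gave 2850. Over 171 named genes and 28 alternatives, 4676 of 4756 values kept their direction and side of the threshold, 60 lost the call and 15 gained it; 147 of the 162 called genes kept the call throughout. Direction turned in 5 values, none of them called: TAGLN (0.0992) and ATP8 (0.43) against day 30 arteries alone, FOS (0.33) and IL6 (0.0587) against day 14 arteries alone, and BAX (0.0916) on its highest transcript; the cause was not tested. Without counts, a difference among genes of low FPKM cannot be weighed against counting error.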

Other observations

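Further gene lists are given here as counts of called genes, to be read beside the 25.2% higher and 12% lower over all genes; several, among them the protease and the T and natural killer cell lists, lay below both shares. Axon guidance and ephrin genes gave 10 rises and 5 falls among 23 tested, and 6 rises and 5 falls under median-of-ratios scaling. Matrix proteases and their inhibitors gave 6 rises and 2 falls among 29, and genes of lipid and fatty acid handling 6 rises and 1 fall among 20. Of the blood cell lists, T and natural killer cell genes gave 1 rise among 8, neutrophil and mast cell genes 3 rises and 1 fall among 6, and erythroid and platelet genes 1 fall among 3. The 3 tested genes of B cells, plasma cells and lymph nodes (CD79B, JCHAIN and MZB1) did not pass limma's test, with adjusted p of 0.47, 0.53 and 0.39. The epithelium, mesothelium and gland list gave 2 rises among 3 tested genes, and summed to 26.69 to 30.82 FPKM in the veins and 0.46 to 4.31 FPKM in the arteries. Of the 26 genes called with opposite signs against the 2 artery days, 16 lay above day 14 arteries and below day 30 arteries, and 10 lay the other way round.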
